A study of Homo sapiens with 4 samples.

Results

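In MDA-MB-231 cells, a triple-negative human breast cancer line, binding sites of the oestrogen-related receptor ERRα were mapped by ChIP-seq, the sequencing of DNA that an antibody pulls down with its protein. Of the 20037 protein-coding genes in the RefSeq gene table, 5 chosen genes are described here. These genes were IRF2BPL, ERGIC1, CRIM1, TMEM127 and NKX2-5. They were chosen by the fold enrichment and the position of their peaks: each is nearest to, or holds, a very strong peak away from gene ends. Other genes, such as SPRY4, were also nearest to peaks of this kind. Fold, position and peak number are therefore given as a description, with no test. All peaks with a summit inside the gene or within 150 kb of it, called in reach from here on, were taken: 56 peaks of replicate 1, 49 of replicate 2 and 40 of the list of peaks matched between the replicates. Of these 40 matched peaks, 26 passed an irreproducible discovery rate (IDR) of 0.05, a measure of how well the ranks of a peak agree between replicates, and are called reproducible. The whole series held 5070 such peaks among 10059 matched peaks.

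There were 2 replicates precipitated with an ERRα antibody, from 2 cell culture samples per the series' design text, and 2 inputs of the same line without antibody. No treatment or genetic change of the cells is named in the labels. Formaldehyde-fixed chromatin was used, with paired reads of 81 bases. Depth, which the labels print with no exponent sign, was taken to be 29000000 reads per ERRα library and 10000000 per input. Read counts per peak were not used here, so the spread between the 2 ChIP replicates is the measure of error given. An SD over 2 values is itself imprecise. Expression was not measured, so nothing here says whether a gene near a peak is active.

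ERRα is an orphan nuclear receptor that binds DNA at short elements built on the letters AAGGTCA, often as a single copy preceded by T and another base. It recruits coactivators of the PGC-1 family and is best known for genes of mitochondrial energy metabolism. Nuclear receptors bind many sites far from gene starts, where the nearest gene need not be the one that is regulated. The 5 genes have different known roles. IRF2BPL encodes a nuclear protein of the interferon regulatory factor 2 binding family. ERGIC1 encodes a membrane protein that cycles between the endoplasmic reticulum and the Golgi. CRIM1 encodes a transmembrane protein that binds bone morphogenetic proteins (BMPs). TMEM127 is a tumour suppressor gene of pheochromocytoma whose product sits in endosomal membranes and restrains mTORC1 signalling. NKX2-5 encodes a homeodomain transcription factor of the developing heart.

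Promoter windows in RefSeq (build GRCh38.p14, 250 bases before to 50 after a listed start) were found for 2 of the 5 genes, TMEM127 with 2 starts and IRF2BPL with 1. They are shown because the strong TMEM127 peak had its summit at such a start. Starts of ERGIC1, CRIM1 and NKX2-5 were not analysed here. The window of the inner TMEM127 start lies at chr2:96260546-96260845 and that of the outer start at chr2:96265948-96266247, both on the minus strand. The IRF2BPL window, chr14:77028659-77028958 on the minus strand, lay under a weak peak. The STARD7 window, chr2:96208778-96209077 on the minus strand, held a reproducible summit in reach of TMEM127. The hairpin of the microRNA MIR12118, chr5:173303730-173303817 on the plus strand, lay inside a reproducible peak in reach of NKX2-5. All are written 5′ to 3′ along the gene's own strand, and capitals mark AAGGTCA or its reverse complement (written with U in the hairpin).
TMEM127 inner start: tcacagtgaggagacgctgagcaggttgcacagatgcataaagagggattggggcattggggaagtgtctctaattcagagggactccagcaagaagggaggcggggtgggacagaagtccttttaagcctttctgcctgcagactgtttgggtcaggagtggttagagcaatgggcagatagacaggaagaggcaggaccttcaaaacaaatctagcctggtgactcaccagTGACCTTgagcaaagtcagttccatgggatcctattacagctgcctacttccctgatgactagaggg
TMEM127 outer start: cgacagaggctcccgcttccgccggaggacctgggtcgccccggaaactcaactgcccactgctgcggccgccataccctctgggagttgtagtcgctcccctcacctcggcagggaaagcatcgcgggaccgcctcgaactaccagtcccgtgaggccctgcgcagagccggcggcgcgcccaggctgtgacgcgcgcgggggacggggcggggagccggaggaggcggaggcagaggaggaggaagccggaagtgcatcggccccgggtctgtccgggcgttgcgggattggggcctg
IRF2BPL: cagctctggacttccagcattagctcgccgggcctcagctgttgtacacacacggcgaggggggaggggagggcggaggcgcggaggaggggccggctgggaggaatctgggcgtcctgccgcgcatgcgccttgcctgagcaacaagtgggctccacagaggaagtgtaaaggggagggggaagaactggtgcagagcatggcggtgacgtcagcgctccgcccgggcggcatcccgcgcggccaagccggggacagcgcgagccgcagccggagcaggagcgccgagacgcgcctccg
STARD7: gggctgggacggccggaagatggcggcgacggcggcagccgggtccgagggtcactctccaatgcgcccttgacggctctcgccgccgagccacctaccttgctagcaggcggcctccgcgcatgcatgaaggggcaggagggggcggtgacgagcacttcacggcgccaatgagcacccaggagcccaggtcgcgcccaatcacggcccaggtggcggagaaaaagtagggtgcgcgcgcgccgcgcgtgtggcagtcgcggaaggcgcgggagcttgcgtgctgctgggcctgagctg
MIR12118 hairpin: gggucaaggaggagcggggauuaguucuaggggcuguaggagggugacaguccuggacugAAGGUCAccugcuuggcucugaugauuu

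At TMEM127 the strong peak sat on an annotated start. The peak spanned chr2:96259741-96261235, and its summit at 96260596 was 1 bp from the inner listed start of the gene. The summit was 4 bp from that start in replicate 1 and 7 bp in replicate 2. Fold over input reached 233 (replicate 1) and 215 (replicate 2), a mean of 224 ± 12.3 (SD, n = 2). The gene itself spans 96248514 to 96265997, and the outer start, 5.40 kb upstream, marks its end in the gene table. The summit therefore counts as away from gene ends by the gene table, and as at a start by the promoter table. Of 4138 reproducible summits over 1 kb from every protein-coding gene end, on chromosomes with listed starts, 90 (2.17%) had another listed start of a protein-coding gene within 1 kb. A listed start lay within 100 bp for 16 of them (0.387%) and within 10 bp for 3 (0.0725%). These counts cover the starts that the promoter table lists, and the peaks of ERGIC1, CRIM1 and NKX2-5 could not be set against starts of their own genes.

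The inner window held a copy of AAGGTCA on the strand opposite to the gene, at bases 234 to 240, printed above as its reverse complement. This copy was preceded by T and another base, the full form TNAAGGTCA. It lay 15 bp from the replicate 1 summit and 4 bp from the replicate 2 summit. AAGGTCA on either strand was found in 1377 of 35116 listed promoter windows (3.92%), and in 92 (42.6%) of the 216 windows that held a reproducible summit, which were 0.615% of all windows. TNAAGGTCA was found in 0.951% of all windows and in 15.7% of the 216. The shorter AGGTCA, which both contain, was found in 13.8% and 58.8%. A match describes letters only, and these shares cover windows at listed starts, not distal peaks.

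The window of the outer TMEM127 start held none of the 3 forms. It had a GC content of 72.3% with 34 CpG dinucleotides, while the inner window had 51.7% and 2. The median over all promoter windows was 58.7%. At the outer start a single weak peak was called, in replicate 1, with a fold of 3.496 and a summit 102 bp outside the gene, and none in replicate 2.

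**Figure D1:**
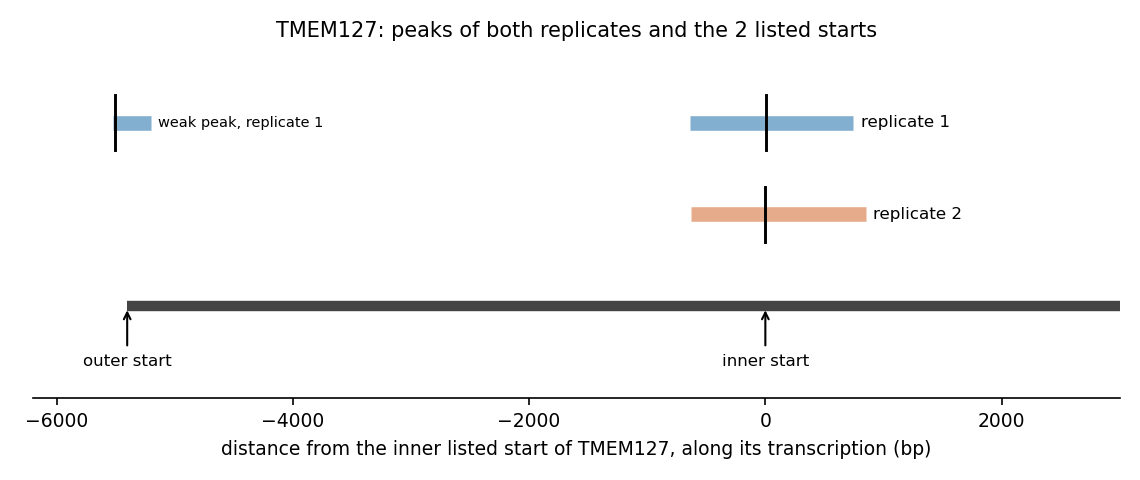
Position of ERRα peaks along TMEM127, as distance in bp from the inner listed start in the direction of transcription. Coloured bars are the peaks of each replicate, black ticks their summits, the dark bar the gene (cut at the right edge) and arrows the 2 listed starts, which are 5.40 kb apart. Both replicate summits of the strong peak lie within 7 bp of the inner start, and the peak at the outer start has a fold of 3.496 in replicate 1.

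Around TMEM127 the other reproducible summits in reach were far weaker than the strong one, and 2 of them lay at starts of other genes. The summit 158 bp upstream of STARD7, which encodes a phosphatidylcholine transfer protein of mitochondria, had folds of 14.9 in replicate 1 and 11.5 in replicate 2. It also lay within the non-coding STARD7-AS1, and the STARD7 window printed above held none of the 3 forms. The summit 762 bp upstream of SNRNP200, a helicase of the spliceosome, had folds of 8.01 and 8.11. The remaining one, 35.9 kb from NCAPH, a condensin subunit, had folds of 10.3 and 14.1. CIAO1, a gene of cytosolic iron-sulphur protein assembly that begins beside the outer TMEM127 start, had no reproducible summit nearer than 5.63 kb, that of the strong peak. The weak replicate 1 peak at the outer TMEM127 start also had its summit within 1 kb of an end of CIAO1. Inside CIAO1 replicate 2 alone had a peak (fold 4.54), and inside SNRNP200 replicate 1 alone had another (8.04). The strong peak was 17.0 times the next strongest in mean fold and made up 87.0% of the summed mean fold of reproducible peaks in reach.

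The strongest of the 5 peaks lay in intergenic sequence below IRF2BPL (at lower coordinates, as below and above are used throughout) and was part of a close pair. The gene spans chr14:77024543-77028708 on the minus strand. The peak's interval was chr14:76955717-76957197 with a summit at 76956581, 68.0 kb from the nearer end of the gene and 72.1 kb from its listed start. Folds were 310.4 in replicate 1 and 312 in replicate 2 (mean 311 ± 0.890). A companion peak at chr14:76957513-76958894 had its summit 1709 bp away, at 76958290, with folds of 121 and 128 (mean 125 ± 5.12). The gap between their intervals was 315 bp, and the replicate summits of the companion were 6 bp apart. Among all reproducible summits, 50 had the next one within 2 kb, and in 1 of these pairs, that near IRF2BPL, both mean folds reached 100. In the whole series 49 reproducible peaks had a mean fold of at least 100.

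The nearest annotated gene of any kind to this pair was the long non-coding RNA gene LINC01629. Its start was 3057 bp from the stronger summit and 1348 bp from the companion. IRF2BPL was the nearest protein-coding gene, and CIPC, which encodes a repressor of the clock protein CLOCK, lay 142 kb from the strong summit. Palmitoyltransferase gene ZDHHC22 was 175 kb away. Replicate 1 alone had a peak (fold 6.69) with its summit 562 bp from CIPC, and another (7.53) 28.0 kb below the strong summit.

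Near IRF2BPL itself binding was much weaker. A reproducible summit 10.4 kb from the gene had folds of 15.6 in replicate 1 and 17.7 in replicate 2, and another, 8505 bp below the strong summit, had 15.5 and 13.8. At the promoter printed above, a matched peak with its summit 270 bp upstream of the start had folds of 4.26 and 5.59 and an IDR score of 154, under the score of 540 that stands for an IDR of 0.05. The other 4 matched peaks that missed this score had mean folds of 4.24 to 6.92. The promoter window of IRF2BPL held none of the 3 forms. The pair contributed most of the signal in reach, since the stronger peak alone held 66.6% of the summed mean fold and was 2.49 times its companion.

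ERGIC1 had the densest binding of the 5 genes. The gene spans chr5:172834251-172952683. Its strong peak was inside the gene, chr5:172909232-172911382 with a summit at 172910927, 76.7 kb from the lower and 41.8 kb from the upper end. Folds were 310.4 in replicate 1 and 284 in replicate 2 (mean 297 ± 18.7). Replicate 1 had a further small peak (fold 4.57) within the matched interval, which replicate 2 called as a single peak. Whether this and the other summits inside genes fall in exons or introns was not analysed here, as the gene table gives whole genes. The microRNA gene MIR10523 lies 4156 bp above the summit.

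Inside ERGIC1 there were 3 more reproducible summits. The one 8.66 kb below the strong summit had folds of 38.1 in replicate 1 and 30.7 in replicate 2, and the one 9.06 kb above it had 13.7 and 14.9. The last, 51.7 kb below it, had 10.4 and 8.15, with replicate summits 631 bp apart, the widest gap of any reproducible peak in reach. Above the gene, a summit 3.27 kb from its end lay inside RPL26L1, a gene for a ribosomal protein-like product, and inside RPL26L1-AS1. It had folds of 42.0 and 34.5 and was the second strongest in reach. This peak and the one of 38.1 and 30.7 were both higher in replicate 1.

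The remaining 4 reproducible summits in reach of ERGIC1 lay below the gene, towards DUSP1 and NEURL1B. DUSP1 encodes a phosphatase that switches off MAP kinases, and the nearest reproducible summit was 1.38 kb beyond its end and 4.48 kb from its listed start, with folds of 14.9 in both replicates. A summit 27.0 kb above DUSP1 had 12.1 in replicate 1 and 12.7 in replicate 2. Above NEURL1B, a ubiquitin ligase gene linked to Notch signalling, a summit at 35.8 kb had 25.7 and 24.1, and one at 26.4 kb had 11.2 and 11.02. Matched peaks inside NEURL1B (mean fold 6.83), DUSP1 (4.53) and CREBRF (6.15), a regulator of the stress factor CREB3, missed the IDR threshold, as did 2 inside ERGIC1 (6.25 and 7.25). The one in DUSP1 had its summit 428 bp from the listed DUSP1 start, and the one in CREBRF lay 120 kb above ERGIC1. ATP6V0E1, a subunit of the lysosomal proton pump, had no reproducible summit nearer than 27.8 kb. The strong peak held 65.1% of the summed mean fold in reach.

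In CRIM1, which spans chr2:36355778-36551135, the strong peak was deep inside the gene. The peak spanned chr2:36438365-36439832, with a summit at 36438896 that was 83.1 kb from the lower and 112 kb from the upper end. Folds were 262 in replicate 1 and 239 in replicate 2 (mean 250.5 ± 15.6), and the replicate summits were 2 bp apart, the closest of the 5. The other 3 reproducible summits inside CRIM1 were weak. They had folds of 12.7 in replicate 1 and 11.5 in replicate 2 at 25586 bp below the strong summit, 8.96 and 10.2 at 48.1 kb above it, and 8.08 and 8.17 at 67.5 kb below it. The last of these was also inside the non-coding LOC124907753, 1194 bp from its start.

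Beyond CRIM1 the next gene, FEZ2, which encodes a protein linked to axon outgrowth and autophagy, held a summit of 26.6 in replicate 1 and 27.8 in replicate 2, 17.1 kb from CRIM1. A summit 30.9 kb past FEZ2 had 24.8 and 20.3. Peaks that failed the IDR threshold had mean folds of 4.95 and 7.21 inside CRIM1, 8.11 inside FEZ2 and 7.55 between FEZ2 and VIT, a gene for an extracellular matrix protein. No reproducible summit in reach lay on the lower side of CRIM1. The strong peak was 9.20 times the next strongest and held 75.9% of the summed mean fold in reach.

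NKX2-5 had a single strong peak and the fewest reproducible summits in reach of the 5 genes, 3. The gene spans chr5:173232109-173235206. The peak spanned chr5:173201093-173202790 with a summit at 173201987, outside genes and 30.1 kb below NKX2-5. Folds were 227 in replicate 1 and 222 in replicate 2 (mean 225 ± 3.72). The pseudogene RPL7AP33 was closer, at 23.8 kb, and BNIP1, a SNARE of the endoplasmic reticulum, was 37.6 kb away on the other side. The other 2 reproducible summits in reach lay beyond NKX2-5 and nearer to STC2, a stanniocalcin hormone gene, at 17.3 and 10.4 kb from it. They had folds of 7.92 in replicate 1 and 8.11 in replicate 2 at 62.3 kb from NKX2-5, inside the non-coding LOC105377731, and of 12.3 and 11.2 at 69.2 kb. The strong peak was 19.1 times the next strongest and held 91.9% of the summed mean fold in reach.

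The farther of these peaks, chr5:173303660-173304854, covered the MIR12118 hairpin printed above. The hairpin held AAGGTCA at bases 61 to 67, preceded by T and another base. This copy lay 436 bp from the replicate 1 summit and 712 bp from the replicate 2 summit, and these summits were 276 bp apart. AAGGTCA was found in 1.20% of promoter windows when they were shortened to their first 88 bases, the length of the hairpin.

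ERGIC1 and NKX2-5 are neighbours on chromosome 5. Their strong summits were 291 kb apart, with 2 reproducible summits between them, that inside ERGIC1 and that in RPL26L1. Their windows share 20.6 kb, which held no reproducible summit, so none of the 26 was counted for both genes.

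**Figure D2:**
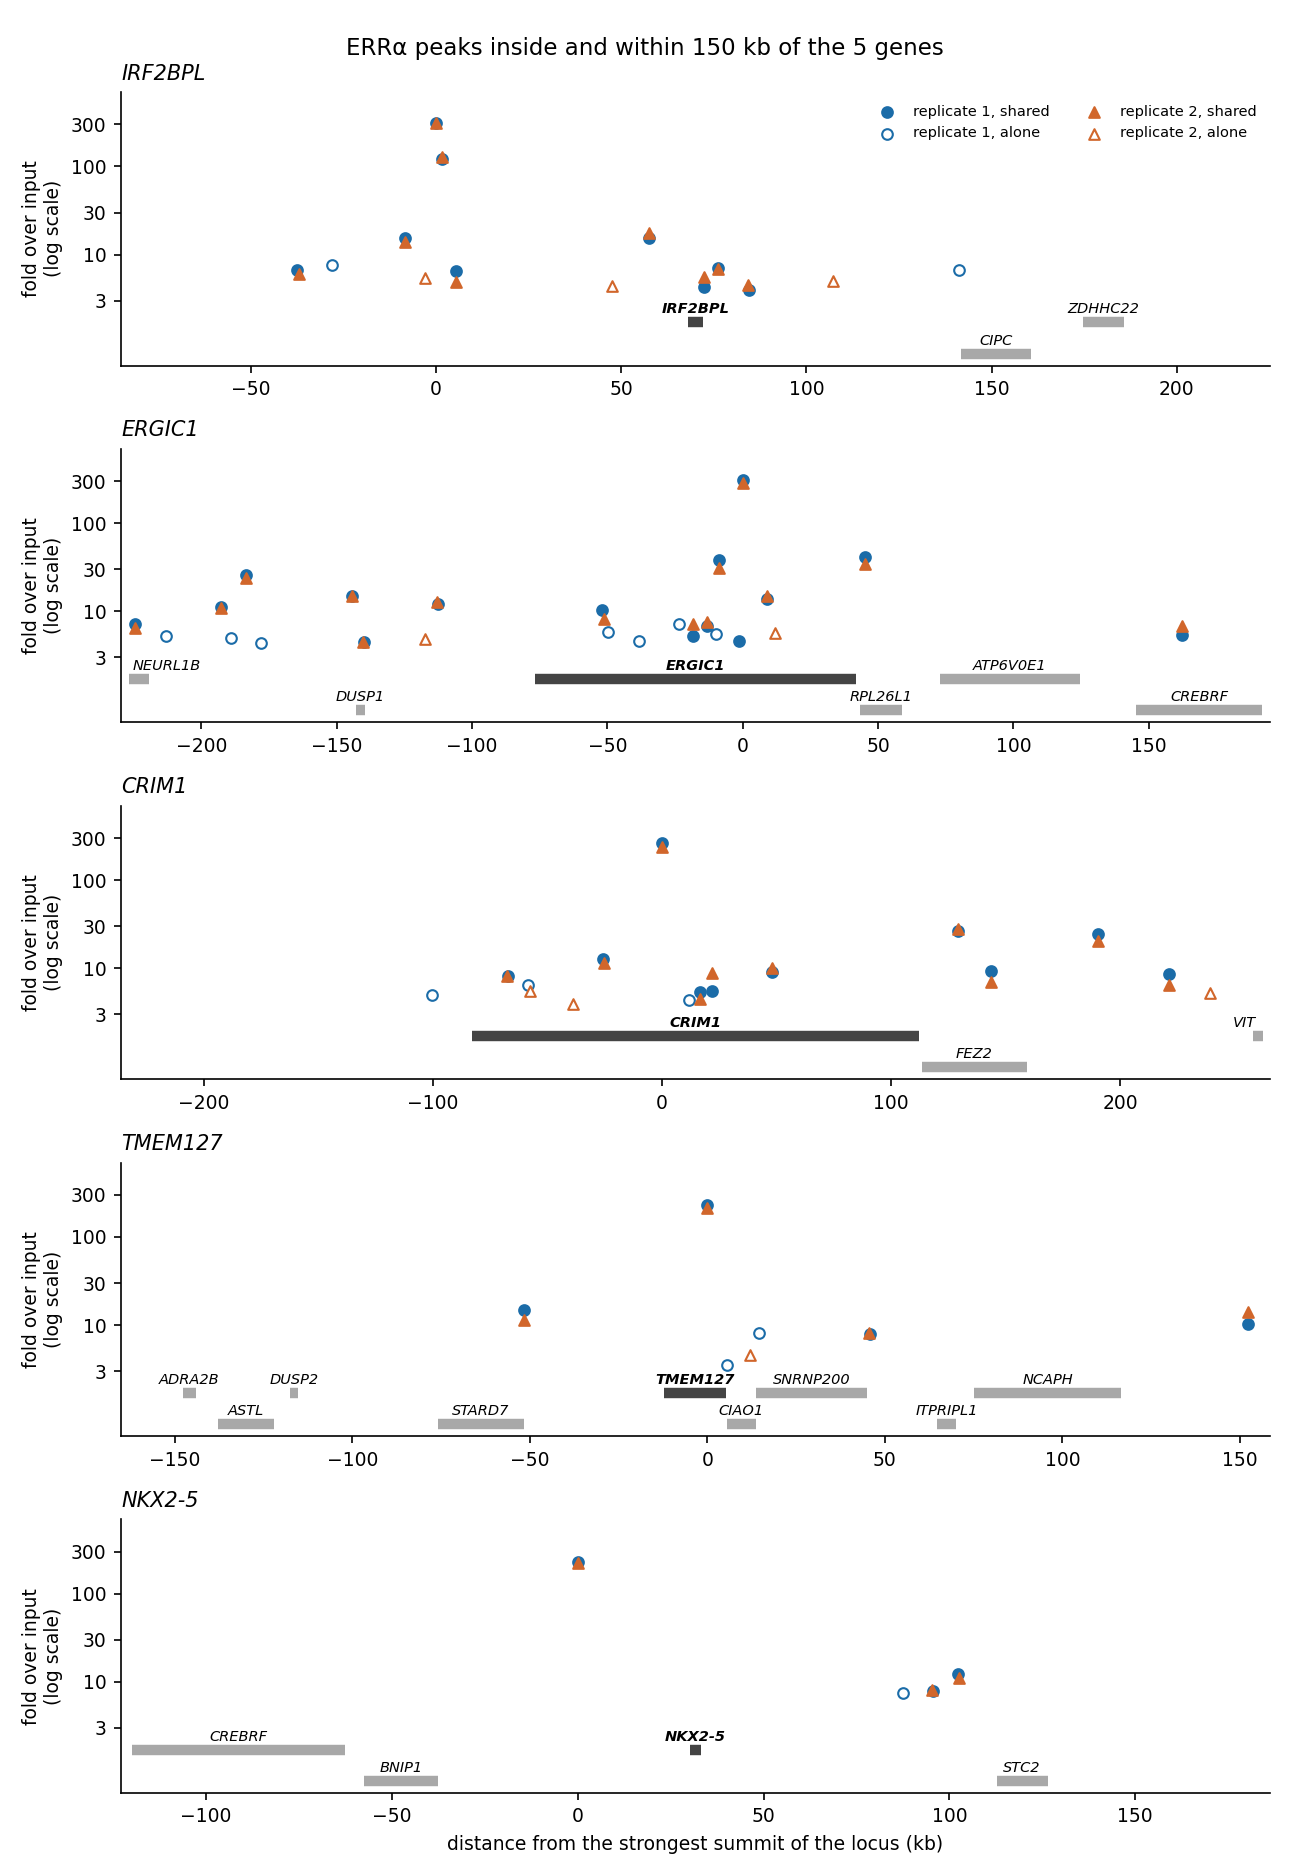
ERRα peaks in reach of each gene, with distance from the strongest summit in kb on the x axis and fold enrichment over input on a log y axis. Filled symbols are peaks shared by the replicates, open symbols peaks found in that replicate alone; bars under the points are protein-coding genes, cut at 150 kb, with the named gene dark. Each panel has its highest points at 0 kb, 215 to 312 in both replicates, and the IRF2BPL panel has a second pair of points of 121 and 128.

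The order of the 5 strong peaks by mean fold was IRF2BPL (311), ERGIC1 (297), CRIM1 (250.5), NKX2-5 (225) and TMEM127 (224), which were ranks 3, 4, 7, 9 and 10 of the 5070. The IRF2BPL and ERGIC1 peaks differed by 13.9, less than the SD at ERGIC1, and those of NKX2-5 and TMEM127 by 0.512. The CRIM1 peak was lower than the ERGIC1 peak by more than either SD (46.6) and higher than the NKX2-5 peak by more than either (25.9). Replicate 1 was higher for 4 of the 5 peaks, and replicate 2 for that of IRF2BPL. Just outside this set, the peak of rank 11 lay 87.1 kb from DYRK2, a kinase gene, with a mean fold of 223 ± 18.3, which differed from the TMEM127 peak by less than either SD. A distal peak of higher fold near SPRY4 (rank 2, 314 ± 15.97) was not among the 5.

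All 5 strong peaks were wide and had closely placed replicate summits. They were chosen for their fold, and were not compared with other peaks of like fold, so a trait particular to them was not tested. Their matched intervals were 1468 to 2151 bp wide, against a median of 774 bp for all reproducible peaks and 942 bp for the other 21 in reach. A matched interval spans the peaks of both replicates. The strong ERGIC1 peak was 1166 bp wide in replicate 1 and 2151 bp in replicate 2, and that of CRIM1 1468 and 1054 bp. Their replicate summits were 2 to 11 bp apart, against a median of 26 bp for all reproducible peaks and 40 bp for the other 21. Among the other 21, widths ran from 440 to 1448 bp and distances between replicate summits from 6 to 631 bp. The companion near IRF2BPL (mean fold 125) was 1382 bp wide, with replicate summits 6 bp apart. For the 5 strong peaks the deposited −log10 q ran from 1193 to 2526. These values come from the same peak calls as the fold, and are not separate evidence for it.

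**Figure D3:**
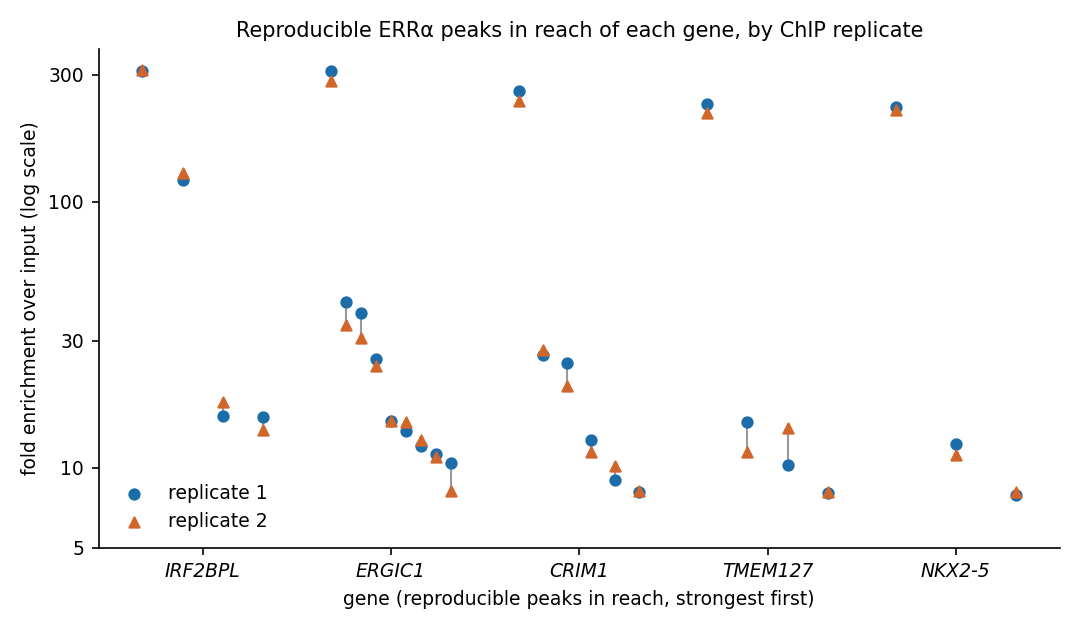
Fold enrichment over input (log scale) of the 26 reproducible peaks in reach, by gene and ordered by mean fold within a gene, with replicate 1 as circles and replicate 2 as triangles joined by a line. The strongest peak of each gene lies between 215 and 312 in both replicates, and the other 21 peaks have mean folds of at most 38.2 except the companion near IRF2BPL (121 and 128).

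The other 21 reproducible peaks in reach had a median height near that of all reproducible peaks, and 1 of them, the companion near IRF2BPL, was above the 99th percentile of all (98.1). Their mean folds ran from 8.01 to 125 with a median of 13.2, against a median of 12.9 for all 5070, and 11 of the 21 were above that median. The fold in replicate 2 over that in replicate 1 had a median of 0.978 for the 26 peaks, with a range of 0.772 to 1.37, against a median of 0.967 for all 5070. Replicate 1 was higher in 15 of the 26 and replicate 2 in 11.

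Peaks in reach were shared between replicates about as often as peaks elsewhere. Of the 56 replicate 1 peaks, 41 (73.2%) shared 1 bp or more with a replicate 2 peak, against 71.9% of all replicate 1 peaks. Of the 49 replicate 2 peaks, 40 (81.6%) overlapped a replicate 1 peak, against 79.8% of all. The 15 found in replicate 1 alone had folds of 3.496 to 8.04, and the 9 in replicate 2 alone had 3.91 to 5.64. ERGIC1 had 9 of these 24 peaks, CRIM1 6, IRF2BPL 5, TMEM127 3 and NKX2-5 1. The 14 matched peaks that failed the IDR threshold had mean folds of 4.24 to 8.11.

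Every one of the 5 genes had a reproducible summit in reach by the way it was chosen. This was so for 55.3% of all protein-coding genes, and 0.334% had a reproducible peak in reach at least as strong as that of TMEM127. Reproducible summits in reach numbered 9 for ERGIC1, 6 for CRIM1, 4 each for IRF2BPL and TMEM127 and 3 for NKX2-5, while the median over all protein-coding genes was 1 (quartiles 0 and 2). At least 9 were in reach of 0.379% of protein-coding genes, at least 6 of 2.1%, at least 4 of 7.77% and at least 3 of 15.6%. Longer genes have longer windows, and per 100 kb of window the number was 2.15 for ERGIC1, 1.32 for IRF2BPL, 1.26 for TMEM127, 1.21 for CRIM1 and 0.990 for NKX2-5, against a median of 0.257 over all. No test was made, since the genes were picked for a peak in the same lists, and that peak is counted in each gene's number.

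**Figure D4:**
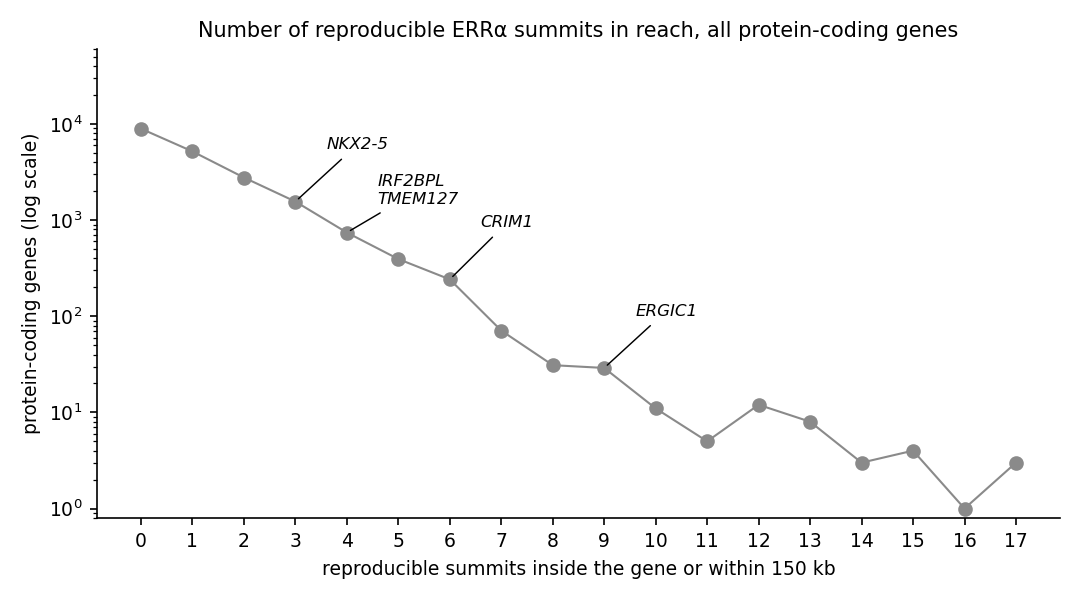
Number of protein-coding genes (log y axis) by how many reproducible ERRα summits lie inside the gene or within 150 kb, over all 20037 genes, with the 5 genes marked. The most common number is 0, and ERGIC1 with 9 lies among 0.379% of genes with at least that many.

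By position, 9 of the 26 reproducible summits lay inside one of the 5 genes, 4 each in ERGIC1 and CRIM1 and 1 in TMEM127. The nearest protein-coding gene was the named gene for 14 of the 26, and 13 lay outside every annotated gene. No reproducible summit lay within 1 kb of an end of the 5 genes, as had been required of the strong peaks; 4.49% of all protein-coding genes had one. In the matched list IRF2BPL had one, from the weak peak at its promoter, as did 8.85% of all protein-coding genes. In the lists of single replicates, replicate 1 had a summit within 1 kb of an end of IRF2BPL and of TMEM127 (12.2% of all protein-coding genes) and replicate 2 of IRF2BPL (11%). Besides the 5 genes, 19 protein-coding genes and 39 other annotated genes overlapped the windows. Of these 19, RPL26L1 and FEZ2 held a reproducible summit, and STARD7 and SNRNP200 had one within 1 kb of an end. Among all protein-coding genes 11.5% held one and 4.49% had one within 1 kb of an end.

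Related genes were taken from 5 lists with 114 entries in all, which were chosen with earlier results of these data known. Of 12 genes of the IRF2BP and interferon regulatory factor families, none had a reproducible summit inside or within 1 kb of an end, where 13.4% of all protein-coding genes had one. In the lists of replicate 1 and of replicate 2 alone, 2 of the 12 had a summit at an end, where 12.2% of all protein-coding genes had one in replicate 1 and 11% in replicate 2. IRF2BPL itself was among the 2 in each replicate. Of 35 genes of transport between endoplasmic reticulum and Golgi, 4 (11.4%) had a reproducible summit inside or within 1 kb of an end. Besides ERGIC1 these were SAR1A, a GTPase of COPII vesicles (12.8 in replicate 1 and 10.7 in replicate 2), its coat partner SEC23B (13.4 and 9.43) and COPG1, a subunit of the COPI coat (10.3 and 8.86). Of 20 extracellular BMP binders and antagonists, 3 (15%) had a reproducible summit inside or within 1 kb of an end. They were CRIM1, VWC2L (14.8 and 13.3) and the BMP antagonist gene CHRD (8.37 and 9.67). ERGIC1 and CRIM1, which these counts include, were themselves chosen for their peaks. The shares of 11.4% and 15% stand beside 13.4% of all protein-coding genes. Reproducible summits at an end were found for SAR1A and COPG1, 2 of the 35 transport genes (5.71%), against 4.49% of all protein-coding genes. None of the IRF2BP and interferon regulatory factor genes or of the BMP binders and antagonists had one.

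The list of pheochromocytoma genes and the lysosomal mTORC1 scaffold had 8 of 26 genes with a reproducible summit inside or within 1 kb of an end (30.8%), against 13.4% of all protein-coding genes. The 8 include TMEM127, which was itself chosen for its peak. The strongest besides TMEM127 was inside RET, a receptor tyrosine kinase gene, with folds of 83.9 in replicate 1 and 79.6 in replicate 2. At ends there were summits of SDHD (31.6 and 32.2) and SDHA (11.8 and 13.98), subunits of succinate dehydrogenase, of the fumarase gene FH (16.4 and 9.62) and of LAMTOR5 (9.56 and 10.4), part of the scaffold that holds mTORC1 at lysosomes. Summits inside the gene were found for RPTOR, the mTORC1 subunit raptor (21.7 and 20.1), and EPAS1, a hypoxia-inducible factor (14.5 and 17.7). The 4 genes with a summit at an end are 15.4% of this list, against 4.49% of all protein-coding genes. SDHA, SDHD and FH are also genes of mitochondrial metabolism. Of 21 genes of the NK2 homeobox and cardiac factors, 2 (9.52%) had a reproducible summit inside, against 11.5% of all protein-coding genes. These were MEF2A (22.6 and 20.7) and MEF2D (8.37 and 7.65). None of the 21 had one within 1 kb of an end. Counts for lists were given with no test.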

How the data were processed

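Peak lists of 2 ERRα ChIP replicates and their list of matched peaks were analysed. The submitters' processing notes name build hg38, MACS2 2.2.6, deepTools, Bowtie2 2.3.5, SAMtools, Picard and Trim Galore 0.6.5. For their settings nothing was given in the sources used here. Each replicate was called against both inputs, per the deposited file names. The authors deposited for each peak a fold enrichment over local input (a ratio), a −log10 p, a −log10 q and a score. The deposited matched list has the 20 columns of IDR output, its score ran from 154 to 1000, and it was not filtered. Its last 8 columns, which hold per-replicate positions and values without names, were not used. Peaks with a score of at least 540 were called reproducible. A peak's fold in a replicate was that of its strongest own peak overlapping the matched interval. Chromosomes 1 to 22, X and Y were used, and peaks on other contigs (371 in replicate 1, 358 in replicate 2 and 272 matched) were left out. Summits were set against RefSeq genes and promoter windows of GRCh38.p14, the same build. No genome sequence was used here, so the planned search for letters under distal summits was not run, and the search of promoter windows was added after seeing the data. Genes named are the 5, those nearest to, holding or within 1 kb of a reproducible summit in reach, members of the lists with a summit at an end or inside, and, chosen after their values were seen, neighbours of these and of peaks beside the set. Members and lists were chosen with earlier results of these data known. Counting steps were tested on simulated data. Python 3.11.15 and pandas 2.3.3 were used.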

Additional observations from a re-analysis of the deposited data

How the results depend on the processing

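The fold of the strongest peak says nothing about stability, since an IDR of 0.01, a reach of 100 kb and the nearest-gene rule kept the same peak for all 5 genes, and with 2 replicates either one lies within 1 SD of the mean by construction. Replicates alone gave 310.4 to 312 for IRF2BPL, 284 to 310.4 for ERGIC1, 239 to 262 for CRIM1, 215 to 233 for TMEM127 and 222 to 227 for NKX2-5. With a reach of 50 kb the pair near IRF2BPL fell out of reach and its strongest peak was 16.7. The strongest peak's share of the summed mean fold also depended on the setting. With all matched peaks it was 62.8% for IRF2BPL, 60.9% for ERGIC1 and 70.0% for CRIM1, and unchanged for TMEM127 and NKX2-5. A reach of 50 kb gave 73.2% for ERGIC1, 81.5% for CRIM1 and 91.3% for TMEM127. It gave 100% for IRF2BPL and NKX2-5, which then had 1 summit each. The 26 reproducible summits became 40 with all matched peaks, 16 with a reach of 50 kb and 14 when the named gene had to be the nearest protein-coding gene. Lists of single replicates gave 49 to 56, and 40 to 47 with a −log10 q of at least 5. The 6 related genes with a summit at an end became 11 with a window of 5 kb, and 19 to 25 in single replicates, which include weaker peaks. Of all protein-coding genes, 33.7% had a reproducible summit within 50 kb, against 55.3% within 150 kb. Sharing of peaks between replicates stayed within 1.5 times of its count under the other definitions of overlap. No paired analysis was possible because the results come from peak lists called against both inputs together and from no test. Depth per peak is unknown, so peaks found in a single replicate are not shown to be absent from the other.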
